A study of Homo sapiens with 16 samples.

Results

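Siglecs are a family of cell surface receptors that bind sialic acids, the acidic sugars at the tips of many glycans. The 10 Siglec genes described here are SIGLEC12, SIGLEC1, SIGLEC5, SIGLEC7, SIGLEC9, SIGLEC10, SIGLEC11, SIGLEC14, CD33 and CD22, out of 60623 genes in the files. They were chosen by name because most of them had higher counts in PARP inhibitor and EVI1 knockdown libraries than in the matching controls. Differences from those controls are therefore a description and carry no test for these genes. RNA-Seq was done on MUTZ-3, an established acute myeloid leukemia cell line that was grown in all groups with fetal bovine serum, medium conditioned by 5637 cells and GM-CSF. In the PARPi experiment, 9 libraries came from cells taken at 12, 24 and 48 h of DMSO (the vehicle), olaparib at 10 µM or talazoparib at 1 µM, and 1 library came from untreated cells at 0 h. In the knockdown experiment, cells were transduced with a pLKO.1 lentivirus and selected with puromycin, and day 3 and day 6 gave 1 library each for the non-targeting control (NTC) and the shRNAs shEVI1-2531 and shEVI1-2532, 6 in all. The deposited files of the libraries labelled shEVI1-2531 carry another shRNA number in their names, and the labels were followed, so every value given for shEVI1-2531 rests on its label. Every condition has 1 library, so time points and days stood in for replicates. The p-values and SEs then measure only the spread left between these libraries after treatment or shRNA and time are fitted. That spread includes any change of an effect over hours or days. The libraries are of 1 cell line and of cultures whose independence the labels do not state. The inhibitors share their DMSO libraries, and the shRNAs share their NTC libraries.

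Most Siglecs of white blood cells carry an inhibitory tyrosine motif (ITIM) in their tail, which recruits the phosphatases SHP-1 and SHP-2 and dampens activation. Others, such as SIGLEC14, lack it and pair with the adaptor DAP12, which activates the kinase SYK. Monocytes and macrophages carry several Siglecs, CD33 is found from myeloid progenitors onward and is an antibody target in acute myeloid leukemia, CD22 belongs to B cells, and SIGLEC1 is a macrophage receptor known to respond to interferon. Among the 10 genes, 9 lie on chromosome 19, of which 7 lie within 522 kb between SIGLEC9 and SIGLEC14 (GRCh38). From the start of that stretch the files place SIGLEC9 at chr19:51124908-51136651, SIGLEC7 at chr19:51142299-51153526 and CD33 at chr19:51225064-51243860, all on the plus strand. On the minus strand follow SIGLEC10 at chr19:51410020-51417803, SIGLEC12 at chr19:51491227-51501800, SIGLEC5 at chr19:51611927-51645545 and SIGLEC14 at chr19:51642553-51646801. Outside it lie CD22 at chr19:35319261-35347361, SIGLEC11 at chr19:49948985-49961172 and SIGLEC1 at chr20:3686970-3707128. All are protein-coding genes in the GENCODE v29 annotation.

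Several of these genes are recent copies of each other, and the copies extend into their promoters. RefSeq promoters of 300 bases, 250 before and 50 after the start of transcription (GRCh38.p14), were found for 9 of the 10 genes, all but SIGLEC1. The SIGLEC12 promoter was 83.7% identical to that of SIGLEC9 and 79.3% identical to that of SIGLEC8, a family gene outside the list that is printed here because its counts went another way under the shRNAs. The promoters of SIGLEC5 and SIGLEC14 were 86.1% identical and shared a run of 163 bases. Identity counts gaps of the global alignment as differences. Below are the 250 bases before the start of each, 5′ to 3′ on the gene's own strand, with capitals where a searched motif was found.
SIGLEC12, chr19:51501801-51502050, minus strand: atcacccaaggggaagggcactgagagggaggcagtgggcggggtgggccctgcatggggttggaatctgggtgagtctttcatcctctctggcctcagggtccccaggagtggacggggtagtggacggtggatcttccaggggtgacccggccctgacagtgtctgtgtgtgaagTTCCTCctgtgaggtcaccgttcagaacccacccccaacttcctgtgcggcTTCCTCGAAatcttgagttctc
SIGLEC9, chr19:51124656-51124905, plus strand: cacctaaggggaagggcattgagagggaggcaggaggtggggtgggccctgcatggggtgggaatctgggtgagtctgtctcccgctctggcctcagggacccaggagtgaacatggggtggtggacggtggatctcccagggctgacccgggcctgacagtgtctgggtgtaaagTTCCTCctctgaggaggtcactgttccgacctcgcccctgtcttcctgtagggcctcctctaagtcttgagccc
SIGLEC8, chr19:51458455-51458704, minus strand: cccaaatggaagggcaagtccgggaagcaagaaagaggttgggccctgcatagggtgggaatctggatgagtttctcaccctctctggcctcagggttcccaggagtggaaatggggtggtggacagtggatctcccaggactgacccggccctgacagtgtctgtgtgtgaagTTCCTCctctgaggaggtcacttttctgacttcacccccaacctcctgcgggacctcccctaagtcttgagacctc
SIGLEC5, chr19:51630402-51630651, minus strand: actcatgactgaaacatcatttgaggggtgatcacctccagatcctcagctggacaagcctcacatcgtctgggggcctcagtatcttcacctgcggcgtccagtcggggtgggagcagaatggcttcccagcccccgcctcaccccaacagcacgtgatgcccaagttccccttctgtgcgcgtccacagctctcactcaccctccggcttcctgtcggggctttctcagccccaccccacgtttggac
SIGLEC14, chr19:51646826-51647075, minus strand: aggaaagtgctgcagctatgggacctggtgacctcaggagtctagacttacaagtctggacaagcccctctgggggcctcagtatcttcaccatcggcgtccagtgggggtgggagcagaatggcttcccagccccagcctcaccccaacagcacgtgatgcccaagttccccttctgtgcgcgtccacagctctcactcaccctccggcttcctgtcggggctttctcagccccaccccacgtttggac

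Motifs of myeloid transcription factors were searched on both strands of these windows of 300 bases, as GAGGAA (PU.1 core), TTGCNNAA (C/EBP core), TGTGGT (RUNX core) and TTCNNNGAA (STAT core). The capitals mark GAGGAA read on the other strand (TTCCTC), which starts 73 bases before the start of SIGLEC12, 74 before SIGLEC9 and 76 before SIGLEC8. SIGLEC12 has it again 22 bases before its start, where it overlaps the STAT core. The stretches of SIGLEC5 and SIGLEC14 held none of these motifs. In all, 4 of the 9 promoters held GAGGAA (SIGLEC7, SIGLEC9, SIGLEC12 and CD33), which 27.6% of the 27305 promoters in the table hold. SIGLEC12 alone of the 9 held the STAT core, which 7.88% of all promoters hold. None of the 9 held the C/EBP core or the RUNX core, which 10.6% and 13.1% of all promoters hold. The RefSeq start of SIGLEC5 lies 15144 bases downstream of the far end of the gene in the files, and that of CD22 lies 9926 bases inside the gene, so these promoters belong to an inner start.

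Similar copies also limit how reads can be assigned. Cut into every stretch of 100 bases, the labelled read length, 80.8% of the GENCODE v29 transcript sequence of SIGLEC5 also occurred in another gene, all of that in AC018755.2, a gene model that overlaps nearly its whole length, and 25.9% occurred in SIGLEC14. For SIGLEC14 the share was 29%, for SIGLEC11 23.6% (16.6% in SIGLEC16), for SIGLEC7 15.8% and for SIGLEC10 10.3%. SIGLEC1, CD22, CD33, SIGLEC9 and SIGLEC12 shared none. SIGLEC5 and SIGLEC14 overlap by 2993 bases on the same strand, and AC018755.2 held 2091 counts over all 16 libraries beside 5395 for SIGLEC5 and 73457 for SIGLEC14. How reads in overlapping or repeated sequence were counted, and whether strand was used, is not given in the sources used here, so counts of SIGLEC5, SIGLEC14, SIGLEC11 and SIGLEC16 are uncertain.

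Total counts ran from 55999673 to 72681943 under PARPi and from 95523038 to 120716213 in the knockdown, and 3 counts amount to 0.0249 to 0.0536 CPM (counts divided by the library total and scaled to a common size with TMM factors). The targeted transcript, read as MECOM, the locus that encodes EVI1, was at 45.3 and 41.4 CPM with NTC, at 14.6 and 19 CPM with shEVI1-2531 and at 5.57 and 4.65 CPM with shEVI1-2532 at day 3 and day 6. Its knockdown was deeper with shEVI1-2532 by 1.70 ± 0.20 on the log2 scale (SE, edgeR quasi-likelihood test, adjusted p = 0.000138). The summed level of 8 monocyte markers was 463 to 609 CPM with DMSO, 501 to 2273 with olaparib and 587 to 4385 with talazoparib. It was 412 to 491 CPM with NTC, 1435 to 1501 with shEVI1-2531 and 5474 to 6845 with shEVI1-2532. The summed level of 6 progenitor markers was 429 to 569 CPM with DMSO, 267 to 460 with olaparib, 157 to 560 with talazoparib, 443 to 828 with NTC, 141 to 161 with shEVI1-2531 and 18.4 to 29.9 with shEVI1-2532. These sums do not stand for every marker. By edgeR, 6 of the 8 monocyte markers were called higher with shEVI1-2532, 5 with shEVI1-2531 and 1 under PARPi. Of the 6 progenitor markers, 5 were called lower with each shRNA and 0 under PARPi. KIT was called higher with shEVI1-2531 (log2 0.71, and 0.389 to 0.433 without a day 6 library of that pair). Of all genes, 21.2% were higher and 19.9% lower with shEVI1-2532, 9.49% and 7.9% with shEVI1-2531 and 3.16% and 1.01% under PARPi. The part of these markers in the Siglec values below was not tested. Of 7 B cell markers, MS4A1, PAX5 and BLNK had at most 3 counts in every library, and of 6 NK cell markers KLRD1 did. The summed level over all 16 libraries was 11.3 to 27.3 CPM for the B cell markers, 6.77 to 20.3 for the NK cell markers, 3.56 to 11.8 for 5 T cell markers, 39.0 to 99.9 for 4 markers of plasmacytoid dendritic cells and at most 0.171 for 3 erythroid markers.

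In the control libraries, the 10 genes were led by SIGLEC12, CD33 and SIGLEC14. Levels per kb of exon correct for length and not for sequence shared with other genes, so the places of SIGLEC5, SIGLEC14 and SIGLEC11 are uncertain. Per kb of exon, the median over the 6 control libraries (untreated, DMSO and NTC) was 14.3 CPM per kb for SIGLEC12, a Siglec whose human form has lost the arginine that binds sialic acid. It was 13.9 for CD33 and 11 for SIGLEC14, the activating receptor. The ranges of these 3 genes over the control libraries overlapped, at 9.93 to 19.4, 12.4 to 18.7 and 8.28 to 13.3 CPM per kb. A second tier held SIGLEC10, the receptor for CD24, at a median of 3.61 (2.41 to 5.47) and SIGLEC9 at 3.46 (2.77 to 5.0), whose ranges overlapped each other and not those of the leading 3. Below them SIGLEC7 had 1.35 (1.03 to 2.64), SIGLEC1 0.961 (0.437 to 1.93) and SIGLEC5 0.781 (0.661 to 1.15), 3 neighbours that also overlapped. SIGLEC11 followed at 0.257 (0.125 to 0.547) and CD22 was lowest at 0.0407 (0.0237 to 0.0711), with no overlap between these 2. The lower tiers were not fully apart, since SIGLEC7 overlapped SIGLEC10 and SIGLEC11 overlapped SIGLEC1. In CPM, which does not correct for length, CD22 stayed between 0.146 and 0.839 in all 16 libraries.

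**Figure D1:**
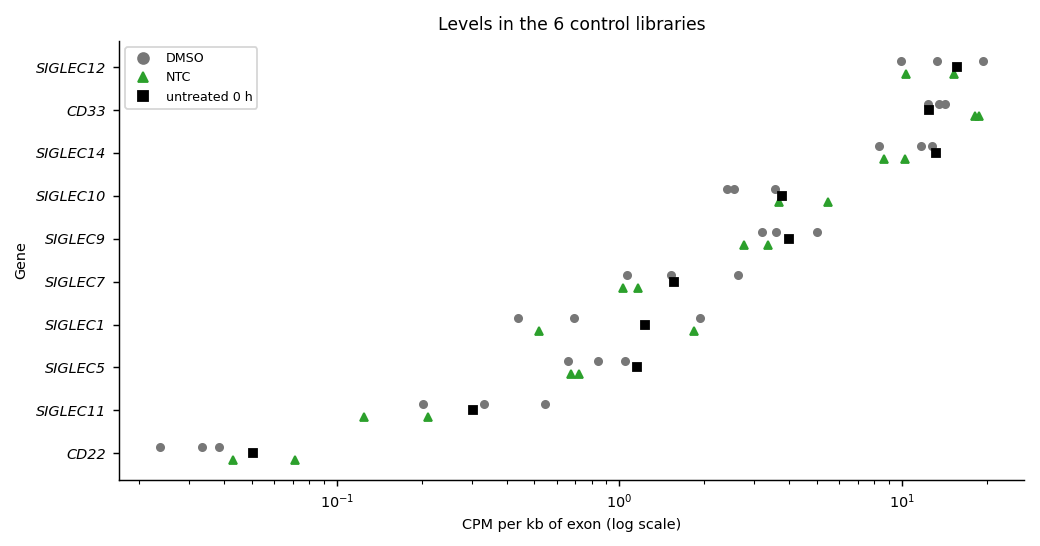
Levels of the 10 Siglec genes in the 6 control libraries, as CPM per kb of exon on a log axis, with 1 point per library and shapes for DMSO, NTC and untreated cells. SIGLEC12, CD33 and SIGLEC14 sit between 8.28 and 19.4 and CD22 sits below 0.0711.

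Under PARPi, most of the 10 genes lay above the DMSO library of the same hour, and the distance grew with time. Of the 10 genes, 8 were above DMSO with olaparib at 12 h, with a median log2 ratio of 0.40, and all 10 were above it at 24 h (median 0.99) and at 48 h (median 1.65). With talazoparib all 10 were above DMSO at 12 h (median 0.41), 24 h (median 1.17) and 48 h (median 2.29). Over all 12433 genes with a mean of at least 1 CPM the median ratio stayed between -0.074 and -0.011 in these 6 pairs. The doses of the inhibitors differ, so their values are set side by side and were not compared. In bulk libraries, more cells that express a gene and more RNA per cell cannot be told apart.

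Among the leading genes, SIGLEC12 was at 42.8, 29.4 and 21.9 CPM with DMSO at 12, 24 and 48 h. It was at 47.8, 53.6 and 67.4 CPM with olaparib and at 55.4, 60.7 and 108.0 CPM with talazoparib, and untreated cells at 0 h held 34.6 CPM. Its DMSO level went down over the same hours in which the inhibitor levels went up, so the log2 ratio at 48 h was 1.62 with olaparib (95% counting interval 1.54 to 1.71) and 2.30 with talazoparib (2.22 to 2.39). SIGLEC14 was at 26.5, 24.4 and 17.2 CPM with DMSO, 46.6, 50.3 and 54.6 CPM with olaparib and 54.4, 50.9 and 83.7 CPM with talazoparib. Unlike SIGLEC12, it was already 1.76-fold and 2.05-fold above DMSO at 12 h, and no inhibitor value overlapped a DMSO value. CD33 was at 81.3, 73.9 and 85.3 CPM with DMSO, 81.0, 78.6 and 121.8 CPM with olaparib and 93.6, 94.5 and 152.0 CPM with talazoparib. It was the member with the smallest fitted difference, and at 12 h with olaparib it did not differ from DMSO beyond counting error.

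SIGLEC7, an ITIM-bearing receptor of NK cells and monocytes, was at 5.39, 3.11 and 2.17 CPM with DMSO, 7.08, 8.21 and 16.9 CPM with olaparib and 6.78, 9.82 and 26.0 CPM with talazoparib, so that talazoparib at 48 h stood 12.0-fold above DMSO. SIGLEC9 was at 12.7, 9.08 and 8.12 CPM with DMSO, 14.8, 19.1 and 28.8 CPM with olaparib and 17.2, 25.4 and 42.9 CPM with talazoparib. For both genes every inhibitor library was above every DMSO library. SIGLEC11, a receptor of microglia and other macrophages, was at 1.74, 1.05 and 0.642 CPM with DMSO, 1.60, 3.66 and 5.63 CPM with olaparib and 2.09, 3.95 and 7.50 CPM with talazoparib. Its olaparib library at 12 h was below DMSO, within counting error, and at 48 h its ratios were 3.13 and 3.55 on the log2 scale. SIGLEC10 was at 13.1, 8.83 and 9.33 CPM with DMSO, 17.7, 15.7 and 22.8 CPM with olaparib and 22.2, 17.3 and 36.6 CPM with talazoparib. SIGLEC5, the inhibitory partner of SIGLEC14, was at 2.47, 1.98 and 1.56 CPM with DMSO, 3.25, 3.82 and 4.86 CPM with olaparib and 3.22, 4.79 and 7.60 CPM with talazoparib. Both genes were above DMSO in all 6 pairs, with intervals above 0. CD22 stayed between 0.146 and 0.236 CPM with DMSO and between 0.260 and 0.604 CPM with the inhibitors, and its counting interval lay above 0 in 2 of the 6 pairs. FCRLA was the B cell marker that rose under PARPi and with both shRNAs, by 5.96 ± 0.47 on the log2 scale with shEVI1-2532 (adjusted p = 2.2e-06), while CD79B fell with both shRNAs. The call of FCRLA was lost under PARPi without the 24 h or the 48 h libraries (adjusted p = 0.341 and 0.109) and with shEVI1-2531 without NTC at day 6 (0.0666), and that of CD79B with shEVI1-2532 without NTC or shEVI1-2532 at day 6 (0.0545 to 0.0653). The part of these markers in the CD22 values was not tested.

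In the fit over the 9 libraries with time point as a factor, the mean log2 difference of both inhibitors from DMSO was 1.76 ± 0.36 (SE) for SIGLEC1, 1.59 ± 0.53 for SIGLEC11, 1.57 ± 0.47 for SIGLEC7 and 1.31 ± 0.21 for SIGLEC14. It was between 0.91 and 1.20 for SIGLEC9, SIGLEC5, SIGLEC10, SIGLEC12 and CD22, and 0.34 ± 0.12 for CD33. The median over the 10 genes was 1.16, beside -0.0064 over all 17218 genes tested. At an adjusted p under 0.05, 3 of the 10 genes were called higher (SIGLEC14, SIGLEC10 and SIGLEC1) and 0 lower (also 0 with DESeq2), in a fit that called 3.16% of all genes higher and 1.01% lower. The genes were chosen with this contrast known, so nothing is read from these counts. They also hang on the time points, with 8 of the 10 called higher without the 12 h libraries, 0 without the 24 h libraries and 7 without the 48 h libraries.

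**Figure D2:**
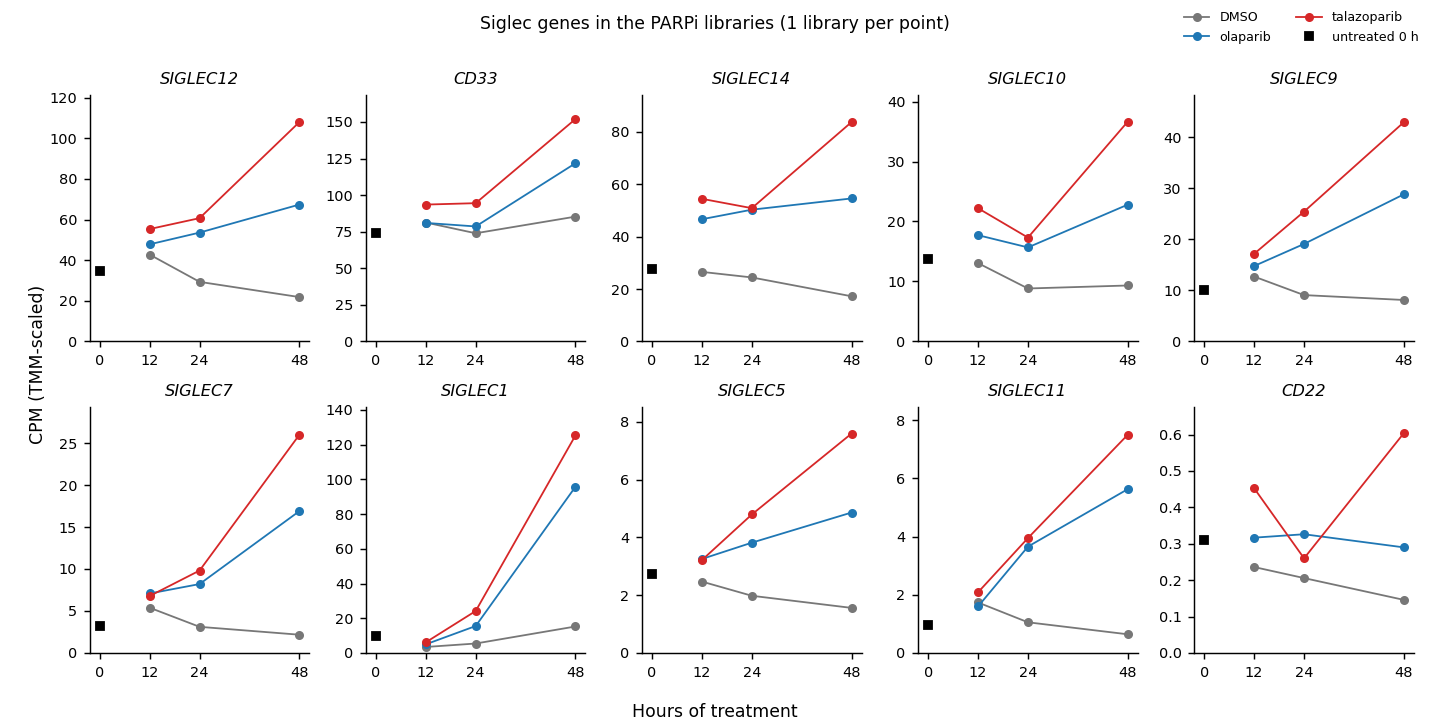
CPM of the 10 Siglec genes against hours of treatment, with 1 library per point, lines for DMSO, olaparib and talazoparib and a black square for untreated cells at 0 h. At 48 h both inhibitor points lie above DMSO in every panel, from 1.43-fold for CD33 with olaparib to 12.0-fold for SIGLEC7 with talazoparib.

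The vehicle libraries were not flat. Between 12 and 48 h of DMSO, 8 of the 10 genes went down and 2 (SIGLEC1 and CD33) went up, with a median log2 ratio of -0.65. Over all genes this median was -0.011. SIGLEC11 had the lowest ratio, at -1.44, and SIGLEC7 followed at -1.31. For those 8 genes the 48 h ratios above thus rest in part on a lower vehicle value. Set against the untreated library, SIGLEC7 with talazoparib at 48 h was at 26.0 CPM beside 3.20 CPM, and SIGLEC12 at 108.0 CPM beside 34.6 CPM.

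With the EVI1 shRNAs most of the genes were also above their controls. At day 3 all 10 genes were above NTC with each shRNA, with a median log2 ratio of 1.47 for shEVI1-2531 and 2.59 for shEVI1-2532. At day 6, 8 of the 10 were above NTC with shEVI1-2531 (median 1.5) and 9 with shEVI1-2532 (median 2.38), where SIGLEC1 was below NTC with both. Over all genes the median ratio in these 4 pairs was between -0.052 and 0.027. From day 3 to day 6 of NTC itself, 9 of the 10 genes went up, with a median log2 ratio of 0.42.

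SIGLEC12 was at 22.8 and 33.8 CPM with NTC at day 3 and day 6, at 137.4 and 155.5 CPM with shEVI1-2531 and at 147.8 and 168.4 CPM with shEVI1-2532. The NTC values lay far below the others, and the shRNAs lay close together. SIGLEC14 was at 18.1 and 21.3 CPM with NTC, 75.8 and 97.6 CPM with shEVI1-2531 and 116.3 and 156.4 CPM with shEVI1-2532, 3 groups that did not overlap. SIGLEC5 was at 1.71 and 1.60 CPM with NTC, 3.41 and 4.48 CPM with shEVI1-2531 and 9.58 and 12.6 CPM with shEVI1-2532. Its gap between the shRNAs was larger than that of its neighbour SIGLEC14. SIGLEC11 had the largest ratios to NTC among the 10 genes. It was at 0.398 and 0.670 CPM with NTC, 2.75 and 5.55 CPM with shEVI1-2531 and 8.72 and 10.4 CPM with shEVI1-2532, and its day 3 ratio for shEVI1-2532 was 21.9-fold. That ratio starts from 45 counts in NTC.

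SIGLEC7 was at 2.10 and 2.39 CPM with NTC, 11.4 and 12.3 CPM with shEVI1-2531 and 19.5 and 23.4 CPM with shEVI1-2532. SIGLEC9 was at 7.04 and 8.50 CPM with NTC, 15.7 and 24.4 CPM with shEVI1-2531 and 45.7 and 46.4 CPM with shEVI1-2532. CD33 was at 108.3 and 111.9 CPM with NTC, 155.1 and 144.8 CPM with shEVI1-2531 and 198.3 and 193.7 CPM with shEVI1-2532. These 3 genes kept the order NTC, shEVI1-2531, shEVI1-2532 on both days, as did SIGLEC5, SIGLEC11, SIGLEC12 and SIGLEC14. SIGLEC10 took another order, at 13.4 and 20.1 CPM with NTC, 46.3 and 45.3 CPM with shEVI1-2531 and 30.3 and 34.9 CPM with shEVI1-2532. CD22 was at 0.265 and 0.438 CPM with NTC, 0.448 and 0.431 CPM with shEVI1-2531 and 0.839 and 0.667 CPM with shEVI1-2532, so that at day 6 NTC and shEVI1-2531 could not be separated at this depth.

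In the fit of the 6 libraries with day as a factor, the median log2 difference from NTC over the 10 genes was 2.58 for shEVI1-2532 and 1.44 for shEVI1-2531, beside -0.00031 and 0.0074 over all 18606 genes tested. The largest differences were those of SIGLEC11, at 4.25 ± 0.28 (SE) for shEVI1-2532 and 2.95 ± 0.27 for shEVI1-2531. CD33 had 0.88 ± 0.13 and 0.47 ± 0.12. At an adjusted p under 0.05, 9 of the 10 were called higher with shEVI1-2532, all but SIGLEC1, where 21.2% of all genes were higher and 19.9% lower. With shEVI1-2531, 8 of the 10 were called higher, all but SIGLEC1 and CD22, where 9.49% of all genes were higher and 7.9% lower. None of the 10 was called lower with either shRNA by edgeR or by DESeq2 in the full set, and at an unadjusted p under 0.05 none was lower either. These counts repeat the choice of the genes and nothing is read from them.

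**Figure D3:**
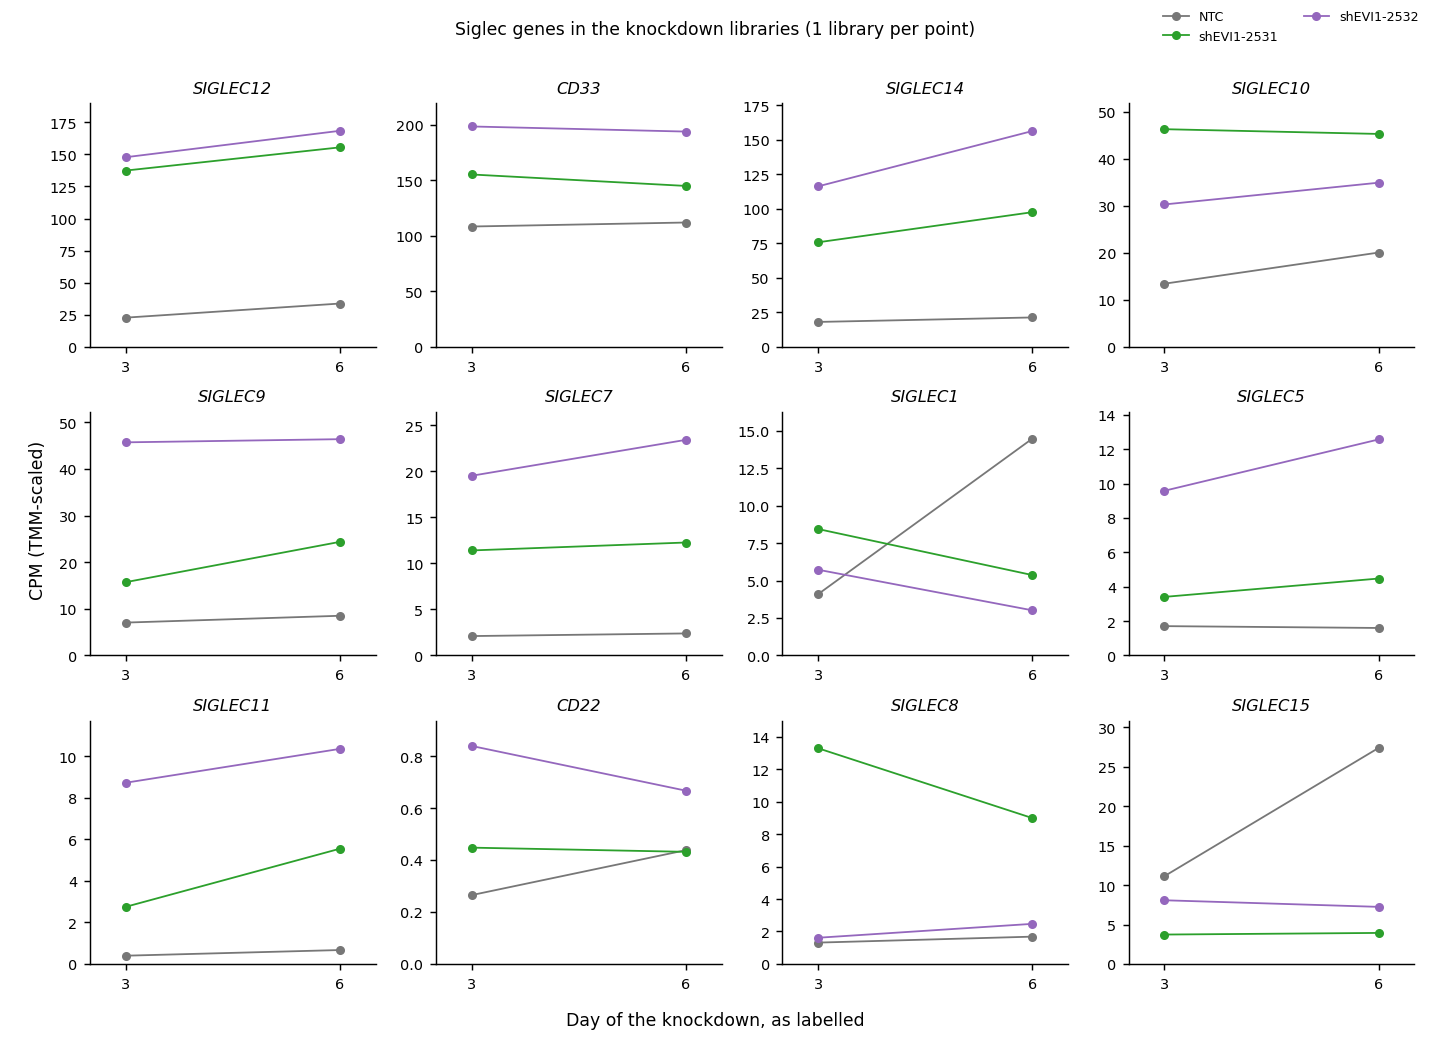
CPM of the 10 Siglec genes and of SIGLEC8 and SIGLEC15 at day 3 and day 6, with 1 library per point and lines for NTC, shEVI1-2531 and shEVI1-2532. SIGLEC1 crosses its NTC line between the days, and SIGLEC8 is high with shEVI1-2531 only, at 13.3 and 8.99 CPM.

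**Figure D4:**
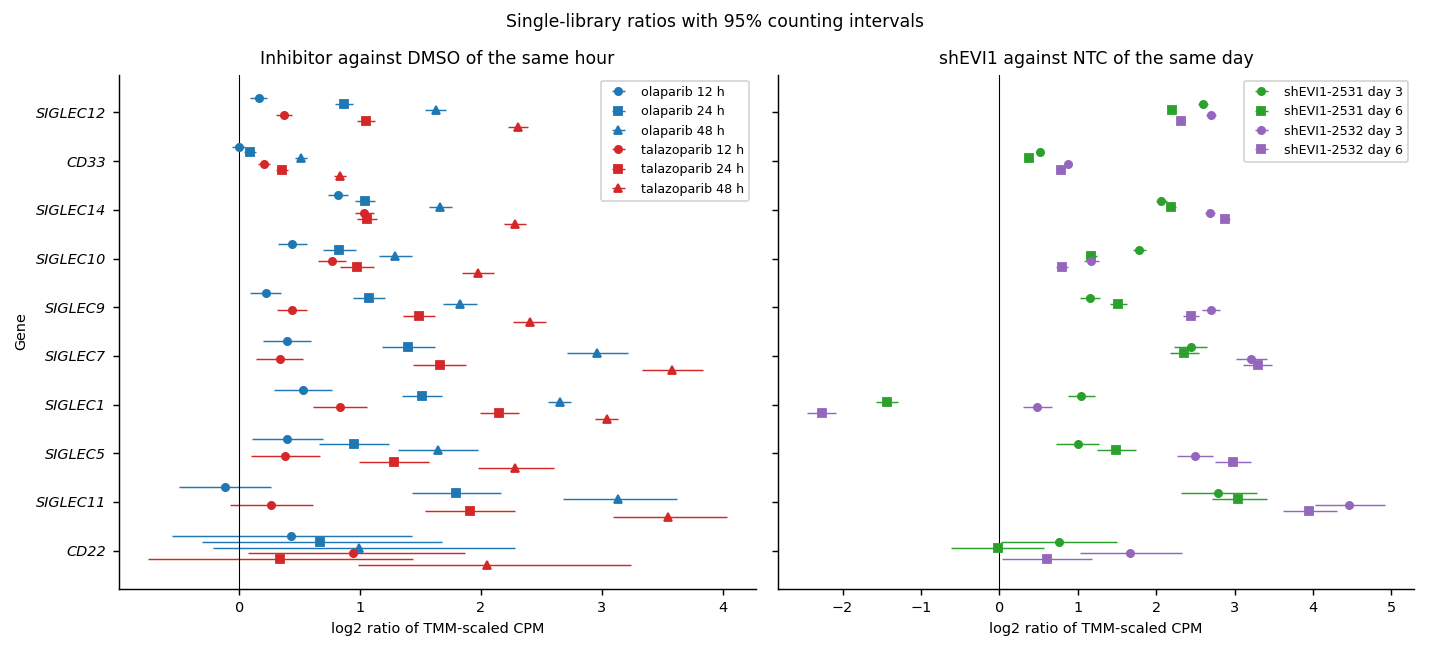
Log2 ratios of single libraries to their matched control for the 10 genes, inhibitors against DMSO of the same hour on the left and shEVI1 against NTC of the same day on the right, with bars for 95% counting intervals. Ratios under PARPi spread with hours up to 3.58 for SIGLEC7, and the shEVI1 ratios reach 4.45 for SIGLEC11 and fall to -2.27 for SIGLEC1.

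The shRNAs were also compared with each other. The genes were chosen on these same libraries, set against NTC, so the values for the 10 genes are a description and carry no p. The median log2 difference of shEVI1-2532 from shEVI1-2531 over the 10 genes was 0.73, beside 0.021 over all genes. SIGLEC5 was higher with shEVI1-2532 by 1.51 ± 0.22 on the log2 scale (SE), SIGLEC11 by 1.30 ± 0.24 and SIGLEC9 by 1.25 ± 0.19. SIGLEC7 was higher by 0.87 ± 0.17, SIGLEC14 by 0.67 ± 0.13 and CD33 by 0.40 ± 0.12. All 6 were higher with shEVI1-2532 on both days, and these are the 6 genes called higher by the edgeR quasi-likelihood test at an adjusted p under 0.05, in a contrast where 12.2% of all genes were higher and 12.0% lower. Nothing is read from this count.

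Among the other 4 genes, SIGLEC12 differed by 0.13 ± 0.14, beside differences from NTC of 2.55 ± 0.15 with shEVI1-2532 and 2.42 ± 0.15 with shEVI1-2531. SIGLEC10 was lower with shEVI1-2532 on both days, at -0.48 ± 0.18. CD22 had 0.80 ± 0.38. SIGLEC1 had -0.64 ± 0.47, which became -1.56 without shEVI1-2532 at day 3 and -1.11 without shEVI1-2531 at day 6. Over all alternatives the SIGLEC1 difference ran from -1.56 to 0.0313, so its size and sign depend on the libraries and settings. The calls depend on the libraries and settings used. SIGLEC10 and SIGLEC1 were both called lower without either NTC library, without shEVI1-2531 at day 6 and without the low-count filter, and CD33 was no longer called without any 1 of the 4 shEVI1 libraries. Without the day in the model SIGLEC5 and SIGLEC9 were called. Over the same contrast 5 of 8 monocyte markers were higher with shEVI1-2532 and 4 of 6 progenitor markers lower, and their part in the differences was not tested.

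**Figure D5:**
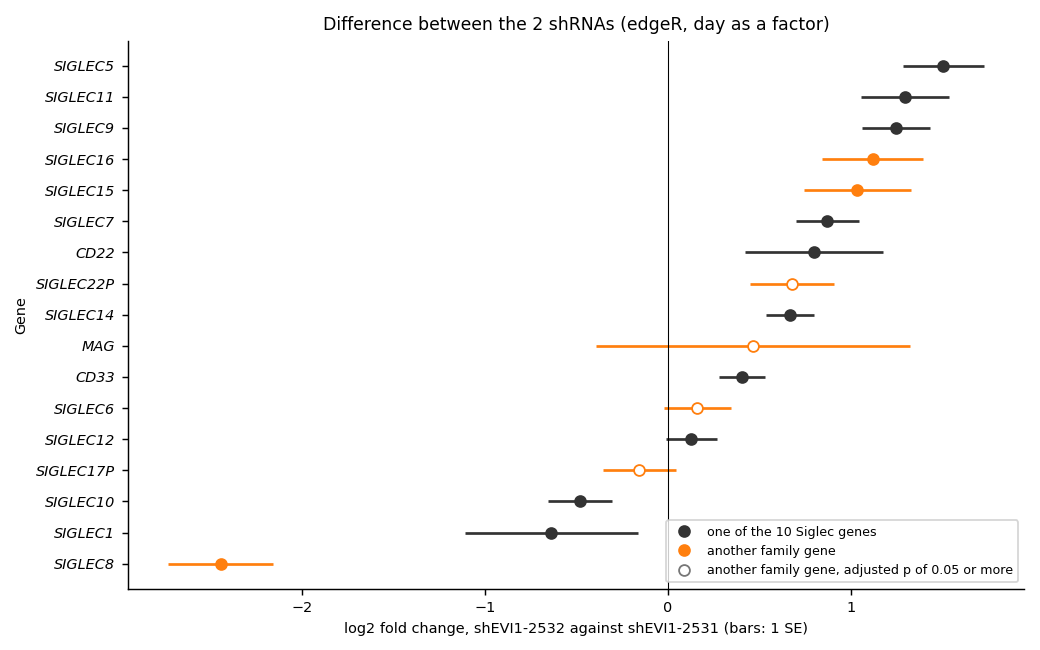
Log2 difference between shEVI1-2532 and shEVI1-2531 for the 10 Siglec genes (dark) and for other family genes (orange), with bars of 1 SE. Among the other family genes, open points have an adjusted p of 0.05 or more, and the 10 genes carry no test. SIGLEC5 has the highest value, at 1.51, SIGLEC12 lies near 0, and SIGLEC8 lies alone at -2.44.

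SIGLEC1, also called sialoadhesin, was the gene whose ratio to NTC changed sign between the days with both shRNAs. It was at 3.44, 5.44 and 15.3 CPM with DMSO at 12, 24 and 48 h, at 4.97, 15.5 and 95.7 CPM with olaparib and at 6.13, 24.2 and 125.3 CPM with talazoparib. All 3 arms went up with time, and the inhibitor arms stood above DMSO at each hour, by 0.53 to 3.04 on the log2 scale. The untreated library at 0 h, at 9.72 CPM, was above the DMSO libraries at 12 and 24 h. In the knockdown SIGLEC1 was at 4.09 and 14.5 CPM with NTC at day 3 and day 6, at 8.44 and 5.37 CPM with shEVI1-2531 and at 5.72 and 3.01 CPM with shEVI1-2532. NTC went up from day 3 to day 6 while both shRNAs went down, so the log2 ratios to NTC changed sign, from 1.05 to -1.43 for shEVI1-2531 and from 0.48 to -2.27 for shEVI1-2532. With 1 library per arm and day this change of sign has no test.

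Beside SIGLEC1, 6 interferon-induced genes (IFIT1, IFIT3, MX1, ISG15, OAS1 and IFI44L) were read, chosen after their values were seen. Their median log2 ratio to DMSO was 0.09, 1.04 and 1.39 with olaparib at 12, 24 and 48 h and 0.24, 1.88 and 0.70 with talazoparib. From 12 to 48 h of DMSO it was 1.80, beside 2.15 for SIGLEC1, and from day 3 to day 6 of NTC it was 0.98, beside 1.82. With shEVI1-2531 the median ratio to NTC was -0.23 at day 3 and -2.56 at day 6, and with shEVI1-2532 it was -1.34 and -3.62. Against the untreated library their median was -0.30, 0.30 and 1.64 in DMSO at 12, 24 and 48 h, beside -1.50, -0.84 and 0.65 for SIGLEC1, so that the signs differed at 24 h. The signs also differed at day 3, where SIGLEC1 was above NTC with both shRNAs and the medians were below it. Their part in the SIGLEC1 values was not tested.

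SIGLEC5 and SIGLEC14 are a pair of an inhibitory and an activating receptor with nearly the same outer domain, and their counts can be read as a share. SIGLEC14 made up 91.0% of the counts of both in untreated cells, 91.4% to 94.4% over the other PARPi libraries and 91.4% and 93.0% with NTC. With shEVI1-2531 it made up 95.7% (95% exact binomial interval 95.2% to 96.2%) and 95.6%, and with shEVI1-2532 92.4% and 92.6%. The intervals of the shEVI1-2531 libraries lay above those of all 4 other knockdown libraries. With the counts of the pair summed, the difference between the shRNAs was 0.72 ± 0.13 on the log2 scale, less than the 1.51 of SIGLEC5 alone, since SIGLEC14 holds most of the counts.

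SIGLEC11 forms the like pair with SIGLEC16, a DAP12-linked gene that the annotation lists as a transcribed pseudogene. Their promoters are shifted copies, with 209 of 211 aligned bases identical and 178 gap positions. With gaps counted as differences, as for the promoters above, they were 53.7% identical. SIGLEC11 made up 65.7% to 79.1% of the counts of both over the PARPi libraries and 69.7% to 79.0% with the shRNAs. With NTC it made up 39.1% (30.2% to 48.7%) of 115 counts at day 3 and 56.5% (47.8% to 64.9%) of 138 counts at day 6. The summed pair differed from NTC by 3.54 ± 0.24 with shEVI1-2532 and 2.30 ± 0.24 with shEVI1-2531, below the 4.25 and 2.95 of SIGLEC11 alone. Intervals and limits cover counting error only.

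Outside the list the files hold 15 more genes named as Siglecs or MAG, of which 7 had enough counts to be tested. SIGLEC16 rose under PARPi, by 1.59 ± 0.34 on the log2 scale (adjusted p = 0.0471, and 0.341 without the 24 h libraries), and with both shRNAs, by 2.37 ± 0.29 for shEVI1-2532 and 1.25 ± 0.29 for shEVI1-2531, the latter with an adjusted p of 0.0924 without NTC at day 6. SIGLEC6, found on mast cells and placenta, rose with both shRNAs, by 1.48 ± 0.19 for shEVI1-2532 (adjusted p = 6.4e-05) and 1.32 ± 0.19 for shEVI1-2531 (adjusted p = 0.000585). Under PARPi it had 1.47 ± 0.34 (adjusted p = 0.0506) and went from 4.83 CPM with DMSO to 19.4 and 31.5 CPM with olaparib and talazoparib at 48 h. The pseudogene SIGLEC17P rose with both shRNAs, and SIGLEC22P rose with shEVI1-2532 (adjusted p = 0.0645 without NTC at day 6).

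SIGLEC8, the receptor of eosinophils and mast cells, had the largest difference between the shRNAs among the 17 family genes tested. It was at 1.32 and 1.68 CPM with NTC at day 3 and day 6, at 13.3 and 8.99 CPM with shEVI1-2531 and at 1.62 and 2.47 CPM with shEVI1-2532. It rose with shEVI1-2531 by 2.93 ± 0.29 on the log2 scale (adjusted p = 6.2e-05) and had 0.49 ± 0.28 with shEVI1-2532 (adjusted p = 0.190), and the difference between the shRNAs was -2.44 ± 0.29 (adjusted p = 0.000142). The knockdown of EVI1 was deeper with shEVI1-2532, while the SIGLEC8 level was higher with shEVI1-2531. SIGLEC9 and SIGLEC12, whose promoters printed above resemble that of SIGLEC8, were not lower with shEVI1-2532. The part of the promoters in these values was not tested. Of 6 eosinophil and mast cell markers, TPSAB1 (tryptase) and CLC (galectin-10) rose and EPX (eosinophil peroxidase) fell with both shRNAs. PRG3 rose with shEVI1-2532 only, PRG2 was called with neither, and CPA3 had at most 3 counts in every library. Between the shRNAs, EPX was higher with shEVI1-2532 by 1.585 (edgeR, adjusted p = 0.0067). TPSAB1 was also higher with it, by 0.814 (adjusted p = 0.00493), and by 0.732 without shEVI1-2532 at day 3. CLC, PRG2 and PRG3 were not called in that contrast. EPX was called higher under PARPi (0.653, adjusted p = 0.048). The calls of CLC were lost without any of 3 libraries for each shRNA. The summed level of the 6 markers was 1515 to 2112 CPM with NTC, 2200 to 5202 with shEVI1-2531 and 2498 to 2828 with shEVI1-2532, and its part in the SIGLEC8 values was not tested. Under PARPi SIGLEC8 had 1.10 ± 0.33 (adjusted p = 0.0672) and reached 4.64 and 8.63 CPM at 48 h beside 1.49 CPM with DMSO.

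SIGLEC15 and MAG went the other way with both shRNAs. SIGLEC15, a receptor of osteoclasts and macrophages that pairs with DAP12, was at 11.1 and 27.4 CPM with NTC, 3.73 and 3.94 CPM with shEVI1-2531 and 8.08 and 7.24 CPM with shEVI1-2532. It fell by 2.23 ± 0.30 with shEVI1-2531 (adjusted p = 0.000436) and by 1.19 ± 0.29 with shEVI1-2532 (adjusted p = 0.00636, and 0.167 without NTC at day 6 or 0.0586 without shEVI1-2532 at day 6), again with the stronger change under the shRNA that lowered EVI1 less (difference 1.04 ± 0.29, adjusted p = 0.0224, and 0.55 with adjusted p = 0.24 without shEVI1-2532 at day 3). Under PARPi it had -0.49 ± 0.24 (adjusted p = 0.189). With DMSO SIGLEC15 was at 9.32, 11.4 and 21.8 CPM at 12, 24 and 48 h. It was at 9.07, 9.67 and 9.64 CPM with olaparib and at 9.95, 11.5 and 7.66 CPM with talazoparib. The gap at 48 h thus rests in large part on a higher vehicle value. MAG, the myelin-associated glycoprotein, had 49 and 99 counts with NTC, 0 and 12 with shEVI1-2531 and 6 and 6 with shEVI1-2532, and fell with both (adjusted p = 0.00414 and 0.00344). Without NTC at day 6 the adjusted p of MAG for shEVI1-2531 was 0.0565.

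The machinery around the receptors was read from lists of partners, enzymes and ligands, set against the shares of all genes called. Those shares are 9.49% higher and 7.9% lower with shEVI1-2531, 21.2% and 19.9% with shEVI1-2532, and 3.16% and 1.01% under PARPi. Of 8 signalling partners, 3 rose with shEVI1-2531, and 6 rose and 1 fell with shEVI1-2532, with a list median of 0.18 and 0.75. TYROBP, the gene of DAP12, rose by 1.22 ± 0.14 (adjusted p = 0.000139) and 2.49 ± 0.14 (adjusted p = 2.8e-07), and HCST, the gene of DAP10, by 0.75 ± 0.17 and 1.00 ± 0.17. CBL, a ubiquitin ligase, rose by 0.50 ± 0.14 and 0.85 ± 0.14, and SOCS3, a brake on cytokine signalling, rose by 1.45 ± 0.20 with shEVI1-2532. PTPN11, which encodes SHP-2, fell by 0.48 ± 0.15 with shEVI1-2532 (adjusted p = 0.021). Under PARPi none of the 8 passed the test by edgeR (list median 0.39). Left-out libraries ended the calls of CBL (adjusted p up to 0.222) and HCST (0.0817) for shEVI1-2531 and of PTPN11 (up to 0.143) for shEVI1-2532.

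Of 10 genes of sialic acid supply and turnover, 4 rose and 1 fell with each shRNA, in comparisons that share their NTC libraries. NPL, the lyase that breaks down free sialic acid, rose by 2.12 ± 0.24 with shEVI1-2531 and 2.86 ± 0.24 with shEVI1-2532. SIAE, which removes acetyl groups from sialic acid, rose by 1.03 ± 0.16 and 1.52 ± 0.17, and RENBP, a sugar-binding epimerase, by 0.89 ± 0.19 and 1.52 ± 0.20. GNE, which starts sialic acid synthesis, fell by 0.53 ± 0.17 and 0.69 ± 0.17, a call that was lost for shEVI1-2531 without any of 5 libraries (adjusted p up to 0.362) and for shEVI1-2532 without its day 6 library (0.065). The call of RENBP for shEVI1-2531 was lost without either day 3 library of that pair (adjusted p up to 0.131). The list medians were 0.19 and 0.37, and under PARPi none of the 10 passed (median 0.043). Of 3 sialidases tested, NEU1 and NEU3 rose with both shRNAs, NEU1 by 0.86 ± 0.13 and 0.93 ± 0.13 and NEU3 by 0.70 ± 0.14 and 1.17 ± 0.14.

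Of 12 sialyltransferases tested, the enzymes that add sialic acid, 2 rose and 1 fell with shEVI1-2531 and 2 rose and 2 fell with shEVI1-2532, the latter no larger a share than among all genes. ST8SIA6 fell by 1.49 ± 0.21 and 4.53 ± 0.25, and ST8SIA4 rose by 0.73 ± 0.18 and 0.91 ± 0.18. ST3GAL2 rose with shEVI1-2531, and with shEVI1-2532 ST3GAL6 rose by 1.46 ± 0.17 and ST3GAL4 fell by 0.85 ± 0.15. Under PARPi 1 of the 12 passed, ST6GALNAC2, at 1.98 ± 0.35 (adjusted p = 0.0335, and 0.341 without the 24 h libraries). Of 7 glycoprotein ligands, LGALS3BP rose with both shRNAs, by 0.55 ± 0.16 and 1.12 ± 0.16, and CD52 fell with both, by 1.04 ± 0.13 and 0.40 ± 0.13. SELPLG (PSGL-1) rose by 0.97 ± 0.14 and CD24, the ligand of SIGLEC10, by 0.66 ± 0.23 with shEVI1-2532, while MUC1 and SPN (CD43) fell with shEVI1-2531. None of the 7 passed under PARPi, and none of the 3 sialidases did. The calls of CD24 (adjusted p up to 0.864) and CD52 (up to 0.223) for shEVI1-2532 and of LGALS3BP (up to 0.517), SPN (0.10), ST3GAL2 (up to 0.231) and ST8SIA4 (0.11) for shEVI1-2531 were lost without single libraries.

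The genes whose pattern was most like that of SIGLEC12 were sought by the root mean square difference of the 10 log2 ratios (6 inhibitor, 4 knockdown) among genes with a mean of at least 1 CPM. FUCA1, a lysosomal fucosidase, was nearest at 0.320, followed by SMOX (spermine oxidase) at 0.328, CSGALNACT1 (a chondroitin sulfate enzyme) at 0.341, NPL at 0.354 and SIGLEC14 at 0.384. Among the 10 genes SIGLEC9 came at rank 30, SIGLEC5 at rank 65, SIGLEC7 at rank 141, SIGLEC10 at rank 240, SIGLEC11 at rank 499 and CD33 at rank 1335. Of the family genes outside the list, SIGLEC16 came at rank 153, SIGLEC6 at 215, SIGLEC17P at 339 and SIGLEC8 at 458. SIGLEC22P came at 2116 and SIGLEC15 at 12107. SIGLEC1 came at rank 8627 with a difference of 2.12. This is a description over 10 ratios that share 5 control libraries.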

How the data were processed

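RNA-Seq of MUTZ-3 cells was deposited as 1 table of gene counts per library. Per the labels, polyadenylated RNA was made into TruSeq Stranded mRNA libraries and read as 100-base pairs, and the submitters' processing notes name STAR, Picard and featureCounts with the GRCh38 build. Versions and the strand setting of counting are not given in the sources used here. The deposited counts are raw counts per gene, and the TPM values deposited beside them by the authors were used only as a check. No p-value of the authors was used.

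Counts were fitted with edgeR 4.0.16 (R 4.3.3, quasi-likelihood test, TMM factors, Benjamini-Hochberg adjustment over all genes tested, threshold 0.05), after a filter that asked for 10 or more counts in 3 or more libraries (PARPi) or 2 or more (knockdown). The PARPi fit used 9 libraries with arm and time point and 4 residual degrees of freedom, and the knockdown fit used 6 libraries with arm and day and 2. CPM used TMM factors over all 16 libraries. Ratios of single libraries carry 95% counting intervals, which cover counting error only. Length is the union of GENCODE v29 exons. A value of 0.05 CPM was added for the likeness ranking and the interferon genes. Depth was 55999673 to 120716213 counts per library.

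The genes and lists were chosen with earlier results of these data known. No p is given for the 10 genes, since they were chosen on these libraries. Named were the 10 genes, other family genes that reached 10 counts in 2 libraries, MECOM, at most 3 called genes per direction of each list by smallest p, and the 5 genes most like SIGLEC12. FCRLA, CD79B and the eosinophil markers were named after their values were seen. Alternatives were other scalings, other count filters, DESeq2 1.42.0, models without time or day, summed near-identical genes, pooled or separate shRNAs and left-out libraries. The fits were also run on simulated counts of independent libraries, with no time effect and with effects that stay the same over time. That run does not cover effects that change with hours or days.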

Additional observations from a re-analysis of the deposited data

Results flagged for a closer look

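The values of shEVI1-2532 against shEVI1-2531 were flagged for 9 genes of the family. The 6 listed Siglec genes among the 9 were chosen on these libraries. Their calls are therefore no independent evidence, and their values are a description that carries no test. For SIGLEC8, SIGLEC15 and SIGLEC16, outside the list, the difference was called by the edgeR quasi-likelihood test. In this contrast 12.2% of all genes were called higher and 12.0% lower. SIGLEC5 (1.51), SIGLEC11 (1.30), SIGLEC9 (1.25), SIGLEC7 (0.873), SIGLEC14 (0.668) and CD33 (0.405) were higher with shEVI1-2532 on the log2 scale. SIGLEC16 (1.12) and SIGLEC15 (1.04) were also higher with it, where SIGLEC15 had the smaller fall from NTC. SIGLEC8 (-2.44) was lower. The calls of SIGLEC16 were lost without shEVI1-2531 at day 3 (adjusted p = 0.0737) and without shEVI1-2532 at day 6 (0.105), and that of SIGLEC15 without shEVI1-2532 at day 3 (0.236).

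SIGLEC1 stood out because its log2 ratio to NTC was above 0 on one day and below 0 on the other. It was 1.05 with shEVI1-2531 and 0.484 with shEVI1-2532 at day 3, and -1.43 and -2.27 at day 6. With 1 library per arm and day the difference between the days was not tested.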

How the results depend on the processing

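No paired analysis was possible because the labels give no replicate numbers. The match of each library to the control of its hour or day is in the model as time point or day, and the fits without it are given here. Under PARPi, 544 genes were called higher and 174 lower. There were 2057 and 1671 without a filter on low counts, 271 and 72 with at least 50 counts, 1835 and 1639 with DESeq2, 16 and 0 without time point in the model (2806 at an unadjusted p under 0.05), and 387 and 81 with scaling to the library total only. Leaving out a time point gave 0 to 2082 higher and 0 to 1699 lower, with no call without the 24 h libraries, where 2281 genes had an unadjusted p under 0.05. Of the 10 Siglec genes 3 were called higher, 8 without a filter, 8 with DESeq2, 0 without time point and 0 to 8 with a time point left out.

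For shEVI1-2532 against NTC, 3942 genes were higher and 3706 lower. There were 2360 and 5957 with the library total only, 1758 and 1778 without day, 158 and 150 with both shRNAs pooled, and 2747 to 4259 higher and 2556 to 4220 lower with a library left out. Of the 10 Siglec genes 9 were higher, 4 with both pooled, and 0 were lower, 1 without a filter and 0 to 1 with a library left out. For shEVI1-2531, 1765 were higher and 1470 lower. There were 1049 and 2270 with the library total only, 276 and 289 without day, and 1029 to 2058 higher and 786 to 1815 lower with a library left out, when 0 to 1 of the 10 genes was lower. Between the shRNAs, 2271 were higher and 2234 lower. There were 1524 and 3000 with the library total only, 465 and 456 without day, and 1437 to 2477 higher and 1412 to 2553 lower with a library left out. Of the 10 genes 6 were higher, 2 without day, and 0 were lower, 1 with the library total only (SIGLEC10), 1 with DESeq2, 2 without a filter and 0 to 2 with a library left out.

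Scaling to the library total moved the median log2 ratio of all genes to -0.305 for talazoparib at 48 h and -0.298 for shEVI1-2532 at day 6. The cause of these changes was not tested. Of the values of single genes under the alternatives, 1979 were sorted as the same as in the main fit and 70 as moved. Another 31 came to pass the threshold and 228 no longer passed it. For values given without p, no threshold was used. Some values changed sign among the alternatives. The log2 difference of SIGLEC1 from NTC ran from -1.5 to 1.17 with shEVI1-2531 and from -2.19 to 0.475 with shEVI1-2532. That of CD22 ran from -0.0915 to 0.885 with shEVI1-2531. A lone library left in an arm is assumed to vary like the other groups. Few counts limit CD22, MAG and the NTC values of SIGLEC11.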
